A study of Felis catus with 3 samples.

Results

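The 6 genes described here are feline collagen genes: COL5A1 and COL27A1 of the fibrillar class, COL4A5 of basement membranes, COL7A1 of anchoring fibrils, COL14A1 of the fibril-associated class and COL13A1 of the transmembrane class. They were chosen by name, and each symbol was paired with an Ensembl identifier through the study's gene table, which gave all 6 among the 21529 genes measured. Expression was measured by strand-specific sequencing of poly-adenylated RNA in 3 untreated cultures of feline adipose-derived mesenchymal stem cells (ASCs), each from the fat of a different cat and labelled Gray Boy, Luna and SPF2. All 3 were grown in Minimum Essential Medium alpha with 10% fetal bovine serum and harvested at passages 3 to 4, without an inducing or activating treatment. The study collected fat from specific pathogen-free (SPF) cats and from client-owned cats, and this origin was not compared here. There was 1 library per cat and a single condition, so no group comparison exists and no p-value is given. The strain, age and sex of the cats are not given in the labels, and a difference between lines cannot be told apart from a difference between cats, cultures or library preparations.

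Collagens are extracellular proteins whose chains wind around each other into a triple helix. Fibrillar collagens pack side by side into the rope-like fibrils of connective tissue, fibril-associated collagens sit on the surface of these fibrils, type IV collagens form the sheet of basement membranes, type VII collagen ties that sheet to the tissue under it, and transmembrane collagens stay anchored in the cell that makes them. Stromal cells of fat, like other fibroblast-like cells, are known as makers of fibrillar collagen.

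The values are FPKM, fragment numbers divided by transcript length in kilobases and by the mapped reads of the library in units of 1000000. Levels of different genes can thus be set side by side, but only as far as the annotated transcripts are complete, which was not checked. The libraries summed to between 621797 and 688297 FPKM, with 14151 to 14356 genes above 0. The number of fragments behind a value is not known, but in genes under 0.15 FPKM the commonest ratio to Gray Boy was 1.10 for Luna and 0.783 for SPF2. Such a ratio is that of single fragments, and it is smaller for a deeper library. These ratios rested on 16.3% of 663 and 6.63% of 784 low genes, each within 0.5% of the ratio, against 0.151% and 0.255% at the median over other ratios. The stromal marker ENG (endoglin) was at 72.5, 117 and 73.9 FPKM in Gray Boy, Luna and SPF2. It was the 1 stromal marker of 6 listed that had a symbol. Of 8 leukocyte markers 7 could be read, and 5 of these were below 1 FPKM in every line. CD2 was listed at 0 throughout, CORO1A was at 0.564 to 1.03 FPKM, and CD37 was at 5.03 to 7.70 FPKM. CD14 was highest in Gray Boy, at 0.878 FPKM. Of 6 endothelial markers 3 could be read: TEK and LYVE1 were below 1 FPKM in every line, and FLT4 was at 1.47 to 2.02 FPKM. Of 6 epithelial markers 4 could be read. The keratins KRT5 and KRT19 were listed at 0 in every line, KRT7 was below 1 FPKM, and CDH3 was at 1.83 to 8.11 FPKM. The smooth muscle genes SMTN and LMOD1 were at 44.7 to 112 and 22.0 to 109 FPKM. The adipocyte hormone gene RETN, the 1 adipocyte marker of 6 with a symbol, was listed at 0 in every line.

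The 6 genes covered a wide range of levels. COL5A1 was far above the others, COL4A5 followed, COL7A1 and COL14A1 were at a few FPKM, and COL27A1 and COL13A1 were below 1 FPKM in every line. COL5A1 held 93.0% of the summed FPKM of the 6 genes in Gray Boy, 89.5% in Luna and 95.7% in SPF2. The 2 fibrillar genes were thus the highest and the second lowest of the 6 by mean. Each other class had 1 gene here, and 0 of 9 other fibrillar, 0 of 5 other basement membrane and 0 of 3 other transmembrane collagens listed had a symbol in the part of the gene table used here, so the 6 genes do not stand for their classes. The ratio of COL5A1 to COL27A1 was 405 in Gray Boy, 720 in Luna and 444 in SPF2.

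**Figure D1:**
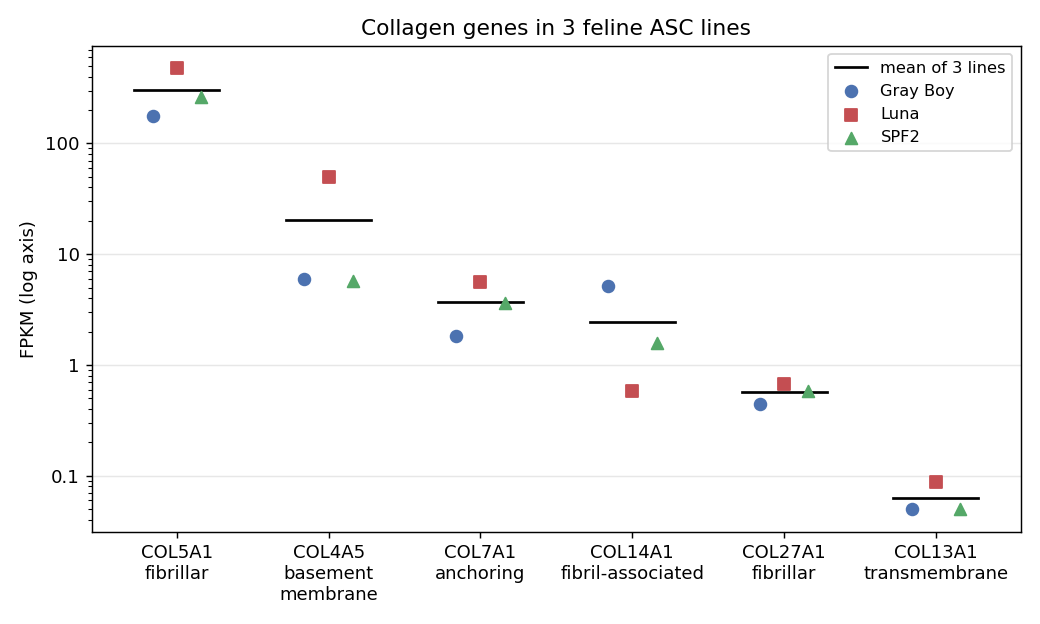
FPKM (log axis) of the 6 collagen genes, ordered by mean, with 1 point per ASC line and a bar at the mean of the 3 lines. COL5A1 lies between 178 and 480 FPKM, and COL13A1 lies at or below 0.0877 FPKM. COL14A1 is the gene with its lowest point in Luna.

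COL5A1 (ENSFCAG00000001958, chromosome D4, 92993010 to 93050860 of the assembly Felis Catus 8.0) encodes a chain of type V collagen, a minor component of type I fibrils that starts their assembly and limits their width. It was at 178 FPKM in Gray Boy, 480 FPKM in Luna and 261 FPKM in SPF2, with a mean of 306 ± 156 FPKM (SD, n = 3 lines). The gene was above 97.8%, 99.1% and 98.6% of all genes of the same library. Luna was 2.69 times as high as Gray Boy, and SPF2 was 1.46 times as high. Without Luna the mean was 219 FPKM.

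COL27A1 (ENSFCAG00000000165, chromosome D4, 76264226 to 76345246) encodes the chain of type XXVII collagen, a fibrillar collagen known mainly from cartilage. It was at 0.440 FPKM in Gray Boy, 0.666 FPKM in Luna and 0.587 FPKM in SPF2, a mean of 0.564 ± 0.115 FPKM (SD, n = 3 lines). Its coefficient of variation, 20.3%, was the smallest of the 6 genes. The highest line was 1.51 times the lowest. The cartilage transcription factors SOX5 and SOX6, the 2 genes with a symbol on a list of 6 cartilage markers, were below 1 FPKM in every line.

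COL4A5 (ENSFCAG00000000758, chromosome X, 87764447 to 88001859) encodes a chain of type IV collagen that is found in the basement membranes of kidney, skin and smooth muscle and is mutated in X-linked Alport syndrome. It was at 5.94 FPKM in Gray Boy, 49.4 FPKM in Luna and 5.75 FPKM in SPF2. Luna stood apart, 8.31 times as high as Gray Boy, whereas SPF2 was 0.968 times Gray Boy. The mean of 20.4 ± 25.1 FPKM (SD, n = 3 lines) therefore describes no line, and without Luna it was 5.85 FPKM. COL4A5 was above 91.0% of all genes in Luna, compared with 61.3% in Gray Boy and 61.0% in SPF2.

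COL7A1 (ENSFCAG00000002099, chromosome A2, 17388734 to 17419621) encodes the chain of type VII collagen, the anchoring fibril protein whose loss causes dystrophic epidermolysis bullosa. It was at 1.82 FPKM in Gray Boy, 5.57 FPKM in Luna and 3.65 FPKM in SPF2, with a mean of 3.68 ± 1.88 FPKM (SD, n = 3 lines). The order of the lines was that of COL5A1. Luna was 3.07 times and SPF2 2.01 times as high as Gray Boy, and the gene lay above 51.1% to 60.7% of all genes. KRT5, a keratin of the basal epidermal cells that also make type VII collagen, was listed at 0 in every line. CDH3, a cadherin of basal epithelia, was at 1.83, 8.11 and 2.49 FPKM in Gray Boy, Luna and SPF2. KRT7 was below 1 FPKM in every line and also highest in Luna, at 0.634 FPKM. The summed level of the 4 epithelial markers that could be read (of 6 listed) was 1.94, 8.75 and 2.57 FPKM, and their part in the COL7A1 values was not tested.

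COL14A1 (ENSFCAG00000001462, chromosome F2, 63186142 to 63384125) encodes the chain of type XIV collagen, which binds the surface of fibrils and is known for a role in their early growth. It was at 5.18 FPKM in Gray Boy, 0.586 FPKM in Luna and 1.58 FPKM in SPF2, a mean of 2.45 ± 2.42 FPKM (SD, n = 3 lines). It was the 1 gene of the 6 with its highest level in Gray Boy and its lowest in Luna. Gray Boy was 8.84 times as high as Luna, and SPF2 was 2.70 times as high as Luna. Without Gray Boy the mean was 1.08 FPKM. Its place among all genes ran from above 46.0% of them in Luna to above 59.5% in Gray Boy.

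COL13A1 (ENSFCAG00000001224, chromosome D2, 33304052 to 33383453) encodes the chain of type XIII collagen, a cell-surface protein of adhesion sites and of the nerve-muscle junction. It was at 0.0496 FPKM in Gray Boy, 0.0877 FPKM in Luna and 0.0506 FPKM in SPF2. These values lie in the range in which FPKM moves in steps of single fragments, and how many fragments separate 0.0496 from 0.0877 FPKM is not known. The mean was 0.0626 ± 0.0218 FPKM (SD, n = 3 lines).

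**Figure D2:**
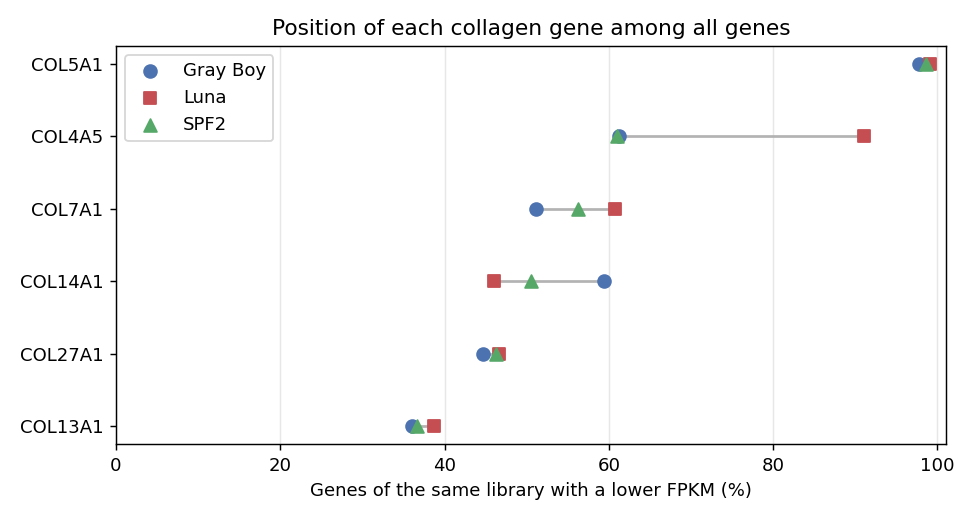
Share of the 21529 genes of the same library with a lower FPKM (x axis, %) for each collagen gene, with 1 point per ASC line and a grey line from the lowest to the highest. COL4A5 has the widest range, from 61.0% in SPF2 to 91.0% in Luna, and COL5A1 stays above 97% in every line.

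In the order of the means, COL5A1 was above COL4A5, COL4A5 above COL7A1 and COL27A1 above COL13A1 in all 3 lines, and the ranges of these neighbours did not overlap. The other 2 of the 5 neighbouring pairs overlapped. COL7A1 was above COL14A1 in Luna and SPF2, by 9.50 and 2.31 times, but was 0.351 times COL14A1 in Gray Boy. COL14A1 was above COL27A1 in Gray Boy and SPF2, by 11.8 and 2.70 times, but was 0.879 times COL27A1 in Luna. The distance between the leading pair also depended on the line, since COL5A1 was 30.0 times COL4A5 in Gray Boy, 9.71 times in Luna and 45.3 times in SPF2. COL4A5 and COL14A1 were nearly level in Gray Boy, with a ratio of 1.15, and 84.4 times apart in Luna.

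Differences between lines were then set beside those of all genes, with a difference counted where FPKM + 1 differed 2-fold or more. A total of 4 of the 6 collagen genes (COL5A1, COL4A5, COL7A1 and COL14A1) had such a ratio between their highest and lowest line, compared with 6.14% of all genes and 10.7% of the 11231 genes with a mean of at least 1 FPKM. Without Gray Boy the count was 1 (COL4A5), beside 841 of the 21529 genes. Without Luna it was 1 (COL14A1), beside 347, and without SPF2 it was 4, beside 916. With all 3 lines 1322 of all genes were counted, so the count over all genes fell as well. With 0.1 and 0.01 FPKM added in place of 1 FPKM, 4 of the 6 collagen genes were counted each time. The share of all genes was then 15.2% and 22.4%. Among genes with a mean of at least 1 FPKM it was 14.1% and 14.5%. COL27A1 and COL13A1, both below 1 FPKM in every line, could not reach this ratio with 1 FPKM added. Luna was the highest line for 5 of the 6 genes, compared with 39.6% of the 15286 genes above 0 in at least 1 line. The genes were proposed with earlier results of these data known, so these counts describe the 6 genes and support nothing beyond them.

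Luna exceeded Gray Boy 2-fold for 3 of the 6 genes, against 2.14% of all genes and 3.78% of those with a mean of at least 1 FPKM. On the log2 scale of FPKM + 1 the differences were 2.86 for COL4A5, 1.42 for COL5A1 and 1.22 for COL7A1. In the opposite direction, COL14A1 fell short of Gray Boy in Luna with a log2 difference of -1.96, against 2.11% of all genes and 3.64% of those with a mean of at least 1 FPKM. The central 95% of genes with a mean of at least 1 FPKM ran from -1.24 to 1.23 in this pair of lines. COL4A5, COL5A1 and COL14A1 lay outside this range, and COL7A1 lay at its upper edge. The order of COL5A1 and COL7A1 depended on the value added. With 0.1 FPKM added the log2 differences were 1.43 for COL5A1 and 1.56 for COL7A1. The unadjusted ratios were 2.69 and 3.07.

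SPF2 and Gray Boy were closer to each other. With 1 FPKM added, SPF2 was 2-fold higher for 0 of the 6 genes, against 0.622% of all genes and 1.1% of those with a mean of at least 1 FPKM. It was 2-fold lower for 1 gene, COL14A1, with a log2 difference of -1.26, against 0.989% and 1.68% of these genes. COL7A1, at a log2 difference of 0.72, was above the central range of -0.81 to 0.68. This gene lay at the 2-fold limit, and its call depended on the value added to each FPKM. The log2 difference was 0.97 with 0.1 FPKM added and 1.00 with 0.01 FPKM added, which passed 2-fold just as the ratio of the unadjusted values, 2.01, did. COL4A5 differed by -0.04. Between SPF2 and Luna, SPF2 was 2-fold lower for 1 gene, COL4A5, with a log2 difference of -2.90, against 2.13% of all genes and 3.72% of those with a mean of at least 1 FPKM. With 1 FPKM added it was 2-fold higher for 0 of the 6 genes, against 1.77% and 3.22%. COL5A1 differed by -0.88 and COL14A1 by 0.70 in that pair. COL14A1 passed 2-fold with a smaller value added, at a log2 difference of 1.29 with 0.1 FPKM and 1.42 with 0.01 FPKM. These 3 pairs share their libraries, so they are not independent of each other.

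**Figure D3:**
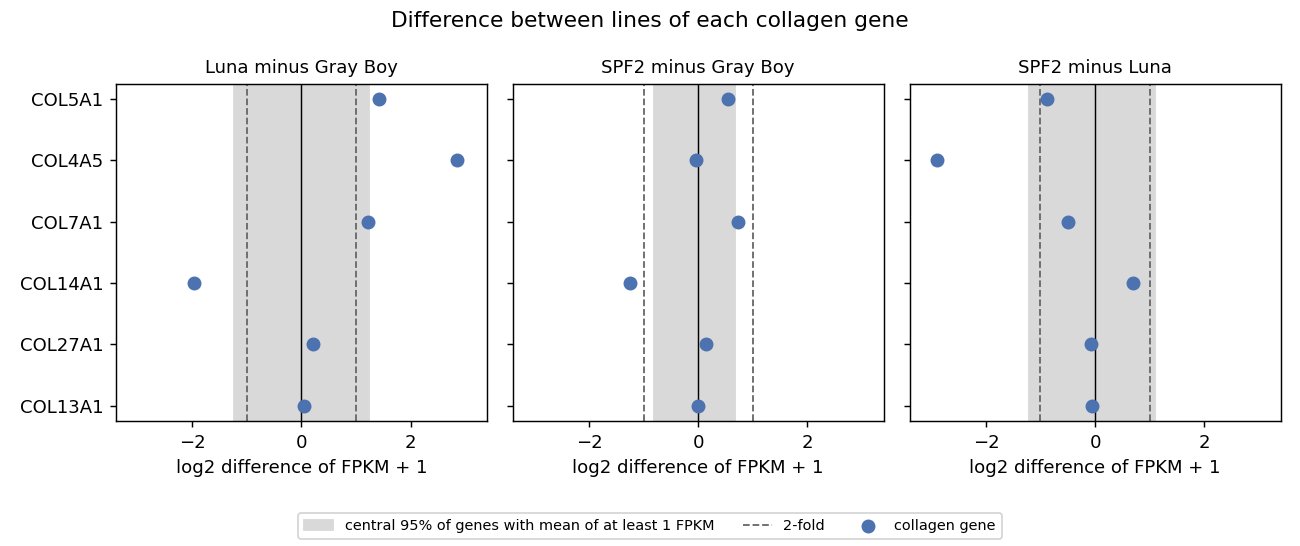
Difference in log2(FPKM + 1) of each collagen gene for the 3 pairs of lines, with the 2-fold limits dashed and the central 95% of genes with a mean of at least 1 FPKM in grey. COL4A5 lies at 2.86 for Luna minus Gray Boy and at -2.90 for SPF2 minus Luna, and COL14A1 lies on the opposite side of 0 from COL4A5 in both.

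The smooth muscle genes SMTN and LMOD1 (the 2 of 6 listed with a symbol) were also highest in Luna, where COL4A5 stood apart. Luna was the highest line for 41.2% of the genes with a mean of at least 1 FPKM, and 2 genes show no link. SMTN was at 44.7, 112 and 56.3 FPKM and LMOD1 at 27.4, 109 and 22.0 FPKM in Gray Boy, Luna and SPF2. The summed level of both was 72.1, 221 and 78.3 FPKM. Type IV collagens surround smooth muscle cells in tissue, but the part of such cells in these values was not tested. In RNA of whole cultures, more cells of a type and more RNA per cell cannot be told apart.

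Of the 19 listed genes that act on collagen chains inside the cell, 5 had a symbol, with means from 2.52 to 116 FPKM. Of these, 1 passed 2-fold between the highest and the lowest line, beside 6.14% of all genes and 10.7% of those with a mean of at least 1 FPKM. FKBP10, a collagen chaperone of the endoplasmic reticulum, was at 100.4, 114 and 134 FPKM in Gray Boy, Luna and SPF2. PLOD1, which hydroxylates lysines of the helix, was at 81.0, 118 and 112 FPKM. P3H4, a partner of the lysine-modifying enzymes, was at 68.0, 100.4 and 89.9 FPKM. The highest line of these 3 genes was 1.34 to 1.48 times the lowest, compared with 2.69 times for COL5A1. SLC39A13, a zinc transporter needed for normal collagen modification, was at 13.7, 23.2 and 19.8 FPKM. The gene that passed 2-fold was P3H2, a prolyl hydroxylase known to act on type IV collagen. It was at 0.878 FPKM in Gray Boy, 5.23 FPKM in Luna and 1.44 FPKM in SPF2, so it was, like COL4A5, highest in Luna, but Gray Boy was its lowest line.

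Of the 13 genes for procollagen cleavage and crosslinking 2 could be read. ADAMTS14, which removes the amino-terminal propeptide of fibrillar procollagens, was at 1.25 FPKM in Gray Boy, 4.48 FPKM in Luna and 1.18 FPKM in SPF2, in the same order of lines as COL4A5. PCOLCE2, an enhancer of carboxy-terminal propeptide removal, was at 19.9, 10.4 and 15.2 FPKM, in the order of COL14A1. ADAMTS14 passed 2-fold and PCOLCE2 did not. The same 6.14% of all genes and 10.7% of those with a mean of at least 1 FPKM passed.

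The 2 basement membrane partners with a symbol (of 17 listed) both passed 2-fold, beside 6.14% of all genes and 10.7% of those with a mean of at least 1 FPKM. NID2 (nidogen-2), which links laminin to type IV collagen, was at 5.32 FPKM in Gray Boy, 8.66 FPKM in Luna and 12.6 FPKM in SPF2, so its highest line was not that of COL4A5. ITGA6, the laminin-binding integrin alpha-6 chain, was at 1.54, 4.68 and 2.53 FPKM, in the order of COL5A1 and COL7A1.

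Of the 11 fibril partners 2 had a symbol, and both were highest in Gray Boy and lowest in Luna. This was the order of COL14A1 and also of 18.6% of the genes with a mean of at least 1 FPKM, and 2 genes show no link. THBS2 (thrombospondin-2), a matricellular protein with a known influence on fibril shape, was at 173, 84.2 and 136 FPKM in Gray Boy, Luna and SPF2 and passed 2-fold with a ratio of 2.04. OGN (osteoglycin), a small leucine-rich proteoglycan, was at 2.35, 0.686 and 1.52 FPKM, a ratio of 1.99 with 1 FPKM added. With 0.1 FPKM added the ratio was 3.12 for OGN and 2.05 for THBS2, so OGN then passed 2-fold too. The other collagen with a symbol, COL9A3 of the fibril-associated class, was at 3.91 FPKM in Gray Boy, 3.48 FPKM in Luna and 1.59 FPKM in SPF2. Unlike COL14A1, of the same class, it was lowest in SPF2. Among the 11 collagenases and inhibitors, MMP13 was listed at 0 in every line, and the membrane-bound MMP15 was at 1.36 to 1.87 FPKM. No collagen receptor of the 10 listed had a symbol here.

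**Figure D4:**
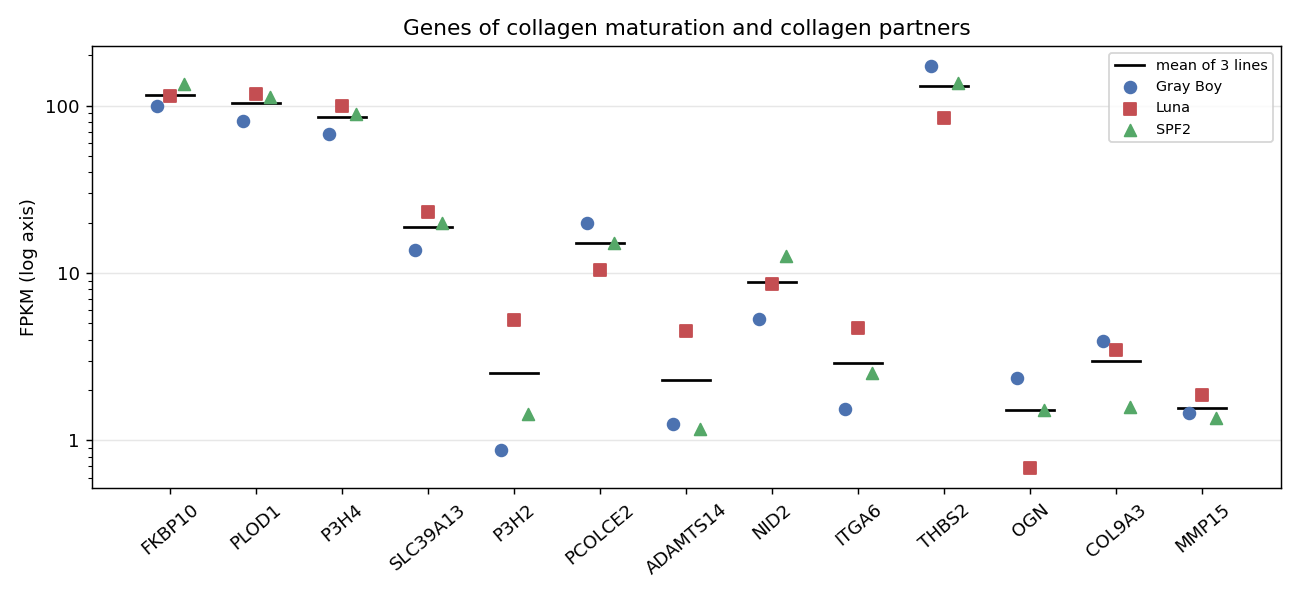
FPKM (log axis) of 13 genes for collagen maturation and collagen partners, with 1 point per ASC line and a bar at the mean of the 3 lines. PLOD1, P3H4, SLC39A13, P3H2, ADAMTS14, ITGA6 and MMP15 have their highest point in Luna, with P3H2 at 5.23 and ADAMTS14 at 4.48 FPKM. THBS2, OGN and PCOLCE2 have their lowest point there.

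Among genes with a symbol and a mean of at least 1 FPKM, those whose pattern over the 3 lines was nearest to each collagen gene were found from log2(FPKM + 0.1), centred on the mean of the lines, as the Euclidean distance (a distance of 0 is the same pattern). With only 3 points per gene many patterns must lie close together, so these are names and not relations. For COL5A1, of 1152 genes, they were ITGA6, HOXB6 and KCNN4, at 0.10 to 0.14. For COL4A5 they were AMIGO2, a cell adhesion protein, at 0.18, then NPPB at 0.44 and BAIAP2L1 at 0.46. AMIGO2 was at 8.89, 62.8 and 7.43 FPKM in Gray Boy, Luna and SPF2. For COL7A1 they were HBEGF, a growth factor of the epidermal growth factor family, at 0.11, then KIFC3 and PTGDS at 0.20 and 0.21.

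COL14A1 had no near match among the 1152 genes searched. Most of the 11231 genes with a mean of at least 1 FPKM had no symbol here and were not searched. The closest genes were EDIL3, a secreted integrin ligand, at 0.51, C12orf56 at 0.54 and DHX58 at 0.65. EDIL3 was at 51.4 FPKM in Gray Boy, 6.13 FPKM in Luna and 10.2 FPKM in SPF2. For the genes of low level, whose log2 values moved little, the nearest were NDST1, TBC1D22B and P3H4 for COL27A1 and TIGD5, SERTAD2 and BRF1 for COL13A1, at 0.01 to 0.05. Within the 6 genes, COL27A1 and COL13A1 were the nearest pair at 0.24, followed by COL5A1 and COL7A1 at 0.30. COL4A5 and COL14A1 were the farthest apart at 4.38. Every value of COL13A1 was below the 0.1 FPKM added, which narrowed its ratio of highest to lowest line from 1.77 to 1.26. The distances of COL13A1, and the lead of its pair with COL27A1, therefore depend on that added value and show no likeness.

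None of the 6 loci overlapped another among the 1997 genes in the part of the gene table used here. Overlap with the rest of the 21529 genes could not be checked. UQCRC1, the respiratory chain gene beside COL7A1, was at 112, 116 and 122 FPKM in Gray Boy, Luna and SPF2. MRPL13, the mitochondrial ribosome gene beside COL14A1, was at 43.4, 47.4 and 39.7 FPKM. IRS4, the nearest gene to COL4A5 among those with a position here, was at or below 0.0151 FPKM in every line. In the RefSeq annotation of a later cat assembly, F.catus_Fca126_mat1.0, the gene before COL4A5 is COL4A6, whose values were not analysed here.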

How the data were processed

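Strand-specific libraries were made by the authors from 200 ng of total RNA per culture. Their reads were aligned with HISAT to the cat genome (ICGSC Felis Catus 8.0), gene expression was estimated with Cufflinks, and Cuffnorm scaled the 3 libraries to each other. Tool versions, the gene annotation and the scaling method of Cuffnorm are not given in the sources used here. The deposited values are FPKM per gene. They are not counts, so no count model, interval or detection floor was used. Symbols and positions came from the available 1997 rows of the study's gene table, of which 1811 had a symbol, and the FPKM came from the deposited files.

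Means, SDs, ratios, percentiles and log2(FPKM + 1) differences were computed with Python 3.11.15, numpy 2.4.6 and pandas 2.3.3. Figures were made in matplotlib 3.10.9. Low values were not filtered except where a mean of at least 1 FPKM is stated. The members, gene lists and rules were chosen with earlier results of these data known. Named were the 6 collagens, other collagens with a symbol and a mean of at least 1 FPKM, and the 3 nearest patterns per collagen. Of each list of collagen-related genes, up to 4 genes of highest mean and 2 of largest ratio were named. Not all cell type markers that could be read were named. Genes beside the loci and CD2 were chosen after values were seen. Alternatives were pseudocounts of 0.1 and 0.01, folds of 1.5 and 3, a filter at 1 FPKM, quantile normalization, TPM (each library rescaled to 1000000) and leaving out each line.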

Additional observations from a re-analysis of the deposited data

How the results depend on the processing

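Rescaling to a sum of 1000000 raised the mean levels of the collagen genes, with COL5A1 at 464, COL27A1 at 0.866, COL7A1 at 5.58 and COL13A1 at 0.0955 on that scale. Quantile normalization moved no mean by as much as 1 SD. The 2-fold spread was counted for 2 collagen genes in place of 4 at a fold of 3, and for 4 under each other pseudocount, scaling, filter and fold tried. At folds of 1.5 and 3 the share of all genes was not counted, so these counts of collagen genes cannot be read against it. The filter at 1 FPKM left out COL27A1 and COL13A1. Leaving out a line gave 1 to 4 collagen genes (1 without Gray Boy, 1 without Luna) and 347 to 916 of all genes, with 347 without Luna and 841 without Gray Boy. Over all genes the count rose from 1322 to 3262 with a pseudocount of 0.1 and to 4828 with 0.01, because genes of low level then pass. Of the 18 differences between lines, 6 were 2-fold, and 7 and 8 were with pseudocounts of 0.1 and 0.01. No 2-fold difference changed direction, but sizes changed. With these pseudocounts 4 and 6 differences moved by at least 1 SD of the gene's log2(FPKM + 1) over the lines. These were of COL27A1 and COL13A1 and, with 0.01, of COL14A1. For Luna minus Gray Boy, COL14A1 went from -1.96 to -3.12 with 0.01, when COL4A5 was at 3.05. No paired analysis was possible because there is a single group. The unknown number of fragments limits what COL13A1 and COL27A1 can show, and single libraries give no error of a line's value.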
